A study of Mus musculus with 9 samples.

Results

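The genes described here are 43 protein-coding genes whose messenger RNA was nearly lost in mouse cells given oxyhemoglobin together with an agent written NTR1. They were chosen from the raw counts of 9 RNA sequencing libraries, each count divided by the total of its library and multiplied by 1000000 (CPM). A gene was kept if it had 3 CPM or more in each of the 6 libraries made without NTR1, and if its mean in the 3 libraries made with NTR1 was at most 1/8 of its mean in the other 6. Symbols of predicted genes and of the histone, Hox, collagen, integrin, lysyl oxidase, metalloprotease, Timp, semaphorin and Unc5 families were left out. Of 54232 entries in the count table, 10524 had 3 CPM in each of the 6 libraries and 53 of those passed the ratio as well. The symbol rule removed 10 of the 53, Col1a1, Col1a2, Col3a1, Col6a2, Lox, Timp3, Unc5c, Gm11816, Gm37310 and 4930447F24Rik. Because the Hb+NTR1 libraries chose the members, their low level in those libraries is a description and carries no test.

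The study compared 3 groups of 3 libraries, all from wild-type cells that the sample titles call HT22, a mouse hippocampal neuronal line, and that the cell type label calls HT-4. All groups were grown in DMEM with fetal bovine serum. Control cells had no intervention, cells of the Hb group had oxyhemoglobin, the oxygenated pigment of red cells, and cells of the Hb+NTR1 group (ganyu in the titles) had oxyhemoglobin and NTR1. No group had the agent alone, the series title spells it NGR1, and the labels used here give no dose or exposure time.

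As background, a messenger RNA falls to a small share of its level when its promoter is transcribed less or when the transcript decays faster, and poly(A) RNA sequencing reads only the level that results. Many broadly used genes have promoters rich in CpG, the dinucleotide at which mammalian DNA is methylated, whereas promoters of tissue-restricted genes are more often poor in it. Several of the 43 genes are known from mesenchymal cells: Ly6a encodes the stem cell antigen of mouse progenitors, Osr1 a zinc finger factor of embryonic connective tissue, and Pdgfrb a growth factor receptor of fibroblasts and pericytes.

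Library totals ran from 13435891 to 16918242 counts, so that 3 counts, the limit that a count of 0 allows, stood for 0.177 to 0.223 CPM, counting error only. The correlation of log CPM, taken across genes and so not over independent points, was 0.908 to 0.922 for pairs of Hb and Hb+NTR1, 0.988 to 0.991 for pairs of control and Hb, and 0.989 to 0.996 inside a group. Hb replicate 2 stood apart from its group, its chi-square over degrees of freedom being 13.2 and 11.0 beside replicates 1 and 3, compared with 2.53 to 5.19 for any remaining within-group pair. The share of counts from the mitochondrial genome was 6.18 to 6.64% with NTR1 and 4.13 to 5.20% without it. In control, 24 of 31 neuronal markers were under 1 CPM, with Map2 at 0, but Dlg4 (68.4 ± 3.64 CPM), Ncam1 (66.5 ± 3.21), Bdnf (34.2 ± 2.36), Tubb3 (31.8 ± 1.28) and Syn1 (24.1 ± 1.32) were expressed, and the list summed to 235 to 246 CPM. Of 25 fibroblast markers 7 were under 1 CPM, with Fap at 0, and the list summed to 19922 to 21379 CPM, 92.7% of it from Col1a2, Col1a1, Vim, Fn1 and Col3a1. Whether the 3 libraries of a group are separate cultures is not in the labels, and p-values therefore reflect a spread between samples that may be technical. In such bulk samples, fewer cells of a type and less RNA per cell cannot be told apart.

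Promoter windows of 300 bases, 250 before and 50 after the annotated start, were found for 29 of the 43 genes in the RefSeq table for GRCm38.p6, and the 14 without one were Asxl3, Cacna1a, Cdh1, Clmp, Dcn, Gas7, Ly6a, Osr1, P2rx3, Pdgfrb, Prl2c2, Scn3a, Serpinb1a and Spon2. The following 5 are shown because they are the window of the marker gene Cdh26 (chr2:178430265-178430564 on the plus strand), of the neighbour of Ly6a and lowest CpG ratio among the members (Ly6c1, chr15:75048788-75049087 on the minus strand), of the members with the highest CPM (Ptn, chr6:36810130-36810429 on the minus strand, and Slc1a3, chr15:8710758-8711057 on the minus strand) and of the highest CpG ratio (Kif26b, chr1:178528875-178529174 on the plus strand). Each is written 5′ to 3′ on the strand of its gene, with CG in capitals and with TATAAA, or its complement TTTATA, in capitals.
Cdh26: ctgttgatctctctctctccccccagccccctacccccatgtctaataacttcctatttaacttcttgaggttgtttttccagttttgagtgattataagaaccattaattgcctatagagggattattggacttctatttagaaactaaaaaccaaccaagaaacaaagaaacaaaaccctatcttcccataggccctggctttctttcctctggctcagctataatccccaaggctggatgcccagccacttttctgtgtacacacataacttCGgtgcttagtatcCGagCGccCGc
Ly6c1: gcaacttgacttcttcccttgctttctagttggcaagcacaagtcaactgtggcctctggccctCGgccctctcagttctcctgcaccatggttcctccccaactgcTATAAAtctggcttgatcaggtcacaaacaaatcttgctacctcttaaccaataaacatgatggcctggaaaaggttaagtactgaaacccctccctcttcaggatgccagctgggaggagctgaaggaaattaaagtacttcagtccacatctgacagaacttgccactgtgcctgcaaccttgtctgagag
Ptn: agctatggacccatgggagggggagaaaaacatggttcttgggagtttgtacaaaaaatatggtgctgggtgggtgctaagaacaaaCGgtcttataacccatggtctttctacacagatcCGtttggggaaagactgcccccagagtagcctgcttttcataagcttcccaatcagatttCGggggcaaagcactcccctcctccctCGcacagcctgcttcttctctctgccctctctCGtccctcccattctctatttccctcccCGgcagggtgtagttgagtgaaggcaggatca
Slc1a3: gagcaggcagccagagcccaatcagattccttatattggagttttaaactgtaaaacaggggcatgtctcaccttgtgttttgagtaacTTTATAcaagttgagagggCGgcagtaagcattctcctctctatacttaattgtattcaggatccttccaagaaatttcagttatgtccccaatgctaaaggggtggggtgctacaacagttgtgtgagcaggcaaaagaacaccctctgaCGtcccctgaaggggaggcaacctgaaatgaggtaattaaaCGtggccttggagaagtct
Kif26b: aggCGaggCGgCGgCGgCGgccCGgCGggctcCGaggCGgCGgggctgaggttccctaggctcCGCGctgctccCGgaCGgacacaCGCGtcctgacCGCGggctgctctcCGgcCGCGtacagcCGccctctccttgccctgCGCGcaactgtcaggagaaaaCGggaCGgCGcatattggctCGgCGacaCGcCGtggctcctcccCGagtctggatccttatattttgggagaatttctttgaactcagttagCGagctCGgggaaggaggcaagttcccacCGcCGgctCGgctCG

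Capitals are sparse in the first 4 windows and dense in the last. Ly6c1 had 1 CG in 300 bases, Slc1a3 had 3, Cdh26 had 4 and Ptn had 6, against 38 in Kif26b. The CpG ratio, the number of CG observed over the number expected from the C and G content, was 0.0575 for Ly6c1, 0.197 for Slc1a3, 0.297 for Ptn, 0.303 for Cdh26 and 1.09 for Kif26b. Over the 29 members the median ratio was 0.326, and over the 9549 tested genes with a window it was 0.771. A ratio of 0.6 or more was found in 7 of the 29 members (24.1%) and in 73.1% of the tested genes. Among genes that met the same floor of 3 CPM in the 6 libraries that share was 78.7%, and with the ratio averaged over all windows of a gene it was 20.7% of the members. Ly6c1 and Il1rl1 lay under 0.1, and Aqp5, Bcl3, Cacng7, Igfbp4, Kif26b, Medag and Tle2 were the 7 at 0.6 or more.

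**Figure D1:**
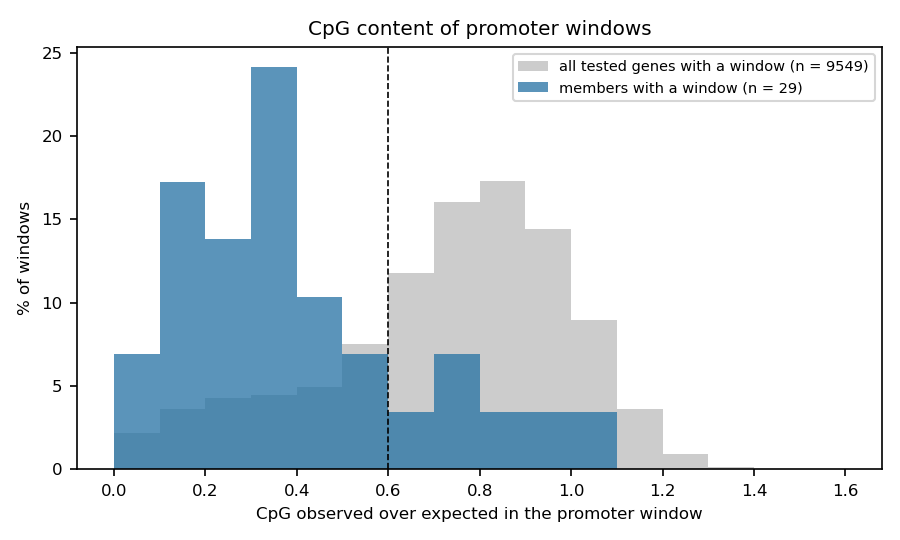
Histogram of the CpG ratio (x axis, observed over expected, bins of width 0.1) in promoter windows, as the percent of windows (y axis) for the 29 members with a window and the 9549 tested genes with one; the dashed line is 0.6. The members lie mostly left of the line, with a median of 0.326 against 0.771.

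Short motifs were searched on both strands of the same windows. TATAAA, the core of the TATA box, was in 6 of 29 members (20.7%), Ccl9, Igfbp4, Ly6c1, Ogn, Phactr1 and Slc1a3, and in 6.88% of all tested windows. GGGCGG, the core of the GC box, was in 37.9% of members and 64.8% of all. The remaining motifs were CCAAT (44.8% of members, 40.0% of all), TGANTCA (10.3% and 4.94%), GGAATG (17.2% and 12.01%), CANNTG (72.4% and 62.5%) and CCCTCCC (34.5% and 27.2%). The GC share of the windows had a median of 54% in members and 61% in all. These matches are letters in a window and do not show that a factor binds there.

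In control and Hb cells the 43 genes covered a wide range of abundance, and with NTR1 all kept between 1.03% (Prl2c2) and 12.3% (Asxl3) of the mean of the 6 libraries. Against Hb alone, the group that differs by NTR1, the range was 0.651% (Prl2c2) to 20.2% (Igsf10), with Igf1 at 14.9% and Car6 at 13.96%, and against control alone it was 1.78% (Cdh26) to 13.7% (Cdh1). The level left relative to the 6 had a median of 6.89%; 15 genes kept under 5%, 17 kept 5 to 10% and 11 kept 10% or more. Summed, the set made up 0.178% ± 0.00457 of control counts, 0.162% ± 0.00654 of Hb counts and 0.0115% ± 0.000192 of Hb+NTR1 counts (mean ± SD, 3 libraries each). Without NTR1, and with no correction for length, 5 genes had a mean over 100 CPM (Ptn, Slc1a3, Gas7, Ly6a and Cp), 26 lay at 10 to 100 CPM and 12 under 10 CPM. Per length of exon sequence, in TPM (counts per base of exon, scaled to 1 fixed sum in each library), the order over the 6 libraries began with Ly6a at 312 ± 65.8, Ptn at 183 ± 32.1, Osr1 at 144 ± 7.97, Ccl9 at 98.2 ± 12.6 and Ly6c1 at 90.2 ± 8.37 (mean ± SD, n = 6).

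In the counts, silencing was not complete for any gene of the set. None of the 43 genes was at 0 in all 3 Hb+NTR1 libraries, and only Prelp was at 0 in 1 of them. The mean with NTR1 was under 1 CPM for 19 genes, and 12 genes had fewer than 30 counts over the 3 libraries, so their remaining level is known only roughly. Of the 11 genes with 100 counts or more there, the highest library exceeded the lowest by 1.04 to 1.60 times, with a median of 1.13. The low level was therefore alike in the 3 libraries for the well counted genes, with Ccl9 the most variable of these 11.

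**Figure D2:**
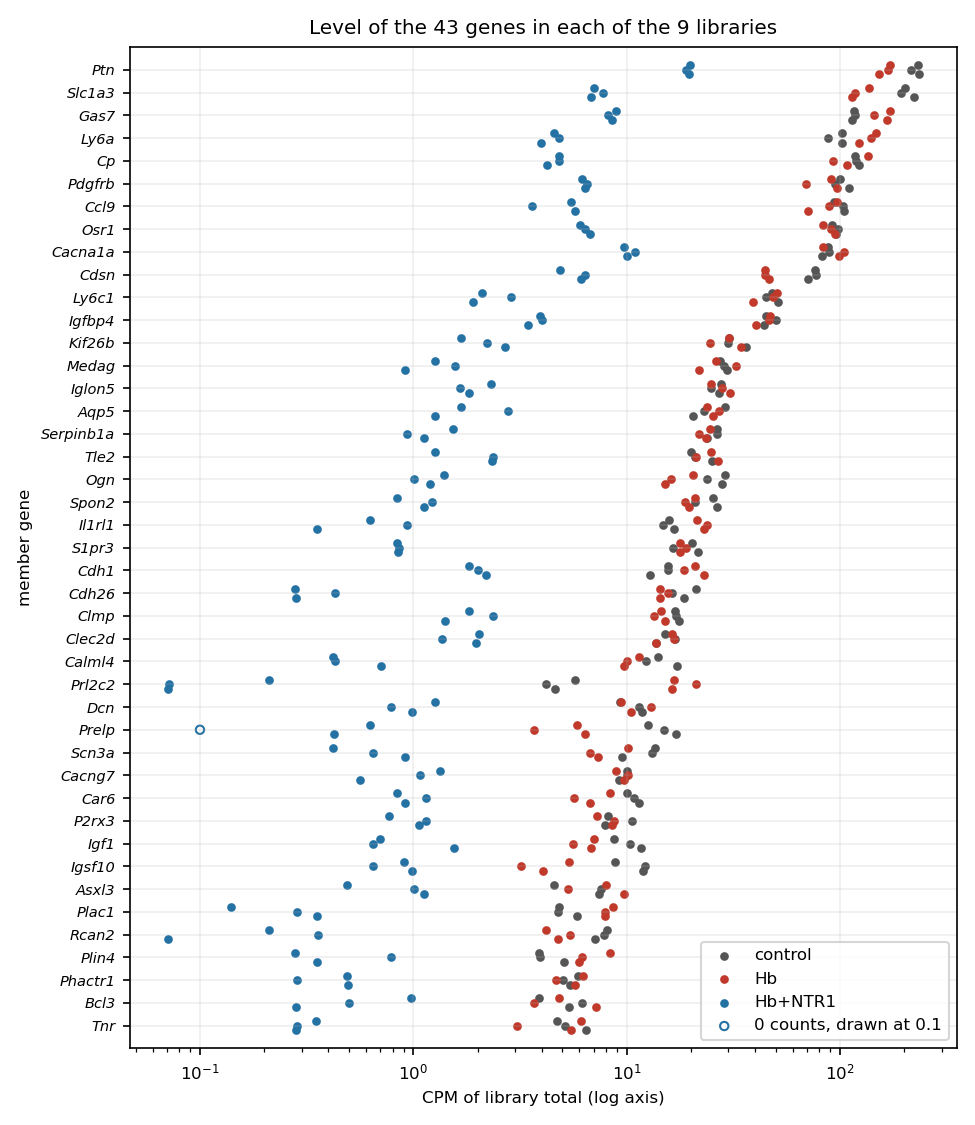
Level of each of the 43 genes (y axis, ordered by the mean of the 6 control and Hb libraries) in each of the 9 libraries (x axis, CPM of the library total, log axis); each point is 1 library. The Hb+NTR1 points lie left of all others for every gene, low by the choice of genes, and the open circle is the 0 count of Prelp.

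The values just at the limits of the rule were close together. Inside the ratio limit of 12.5% were Clec2d at 11.6%, Clmp at 11.8% and Asxl3 at 12.3%, and outside it were Masp1 at 12.6%, Gas1 at 12.7% and Tenm4 at 12.9%. At the floor, the lowest of the 6 libraries was 3.05 CPM for Tnr, 3.19 for Igsf10 and 3.66 for Prelp, while Adra1b (2.83), Ctxn1 (2.77) and Slc6a2 (2.50) fell under it. The level left and the level without NTR1 had no simple order, since Prl2c2 with 11.4 CPM kept the least and Ptn with 196 CPM kept 9.94%.

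**Figure D3:**
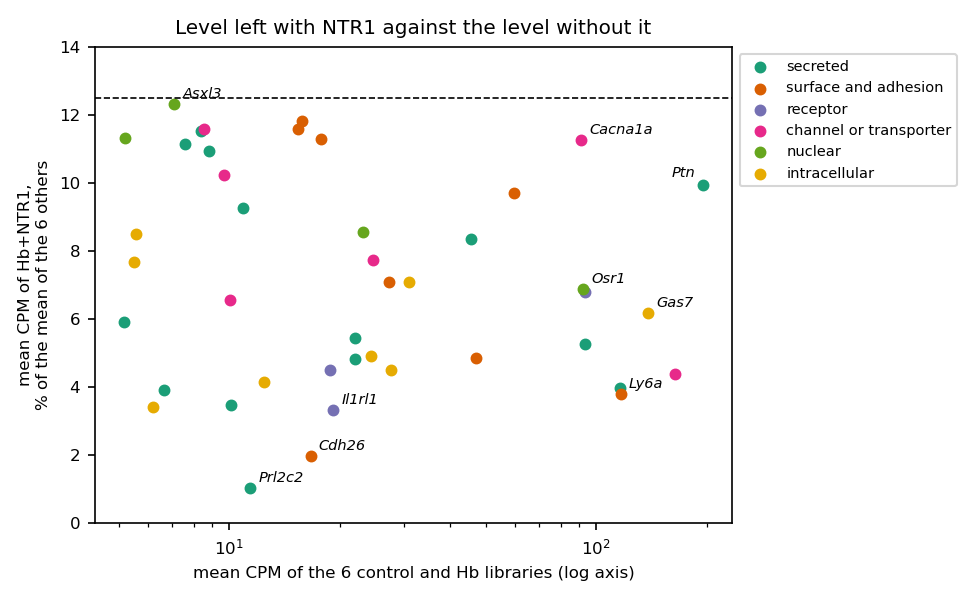
Mean CPM of the 3 Hb+NTR1 libraries as a percent of the mean of the other 6 (y axis) against that mean (x axis, CPM, log axis), 1 point per gene, coloured by the role of the product; the dashed line is the limit of 12.5%. Prl2c2 at 1.03% and Cdh26 at 1.98% are lowest, and abundant genes such as Ptn and Cacna1a lie at 9.94% and 11.3%.

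The rule did not compare oxyhemoglobin alone with control, and in that contrast the 43 genes split. It did use the levels of these 6 libraries, so a gene could enter through the group where it was higher. Set on the Hb mean alone, the rule kept 38 of the 43 and lost Igsf10, Igf1, Car6, Clmp and Cdsn. On the control mean alone it kept 41 and lost Cdh1 and Asxl3. The counts below are therefore not free of the rule. Hb against control called 17 of the 43 (39.5%) by the quasi-likelihood test of edgeR after Benjamini-Hochberg adjustment, against 3.65% of the 13810 genes tested and 4.35% of the genes that met the same floor. Higher with oxyhemoglobin were 6 genes, Prl2c2, Plac1, Il1rl1, Cdh1, Ly6a and Gas7, where 1.88% of all tested genes were higher. Lower were 11, Prelp, Igsf10, Slc1a3, Cdsn, Rcan2, Igf1, Ogn, Car6, Scn3a, Calml4 and Ptn, where 1.77% of all were lower. The median log2 fold change was -0.13 over the members and 0.00 over all tested genes. The Hb libraries lay wholly above the control libraries for 7 of the 43 members and wholly below for 12. Of all tested genes 13.3% lay wholly above and 6.89% wholly below, 20.2% in either direction. The share of members wholly above was thus near that of all tested genes, and the share wholly below was larger. Of the 12 wholly below, Igsf10, Igf1, Car6, Clmp and Cdsn passed the ratio only through their control level. The larger share is therefore set in part by the rule.

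Which of these genes passed depended on single libraries. The count was 11 without control replicate 1, 10 without control replicate 2, 11 without control replicate 3 and 10 without Hb replicate 1, and 16 without Hb replicate 2, the library that stood apart, Scn3a being the call lost there. Over all genes the same fits called 315, 285, 286, 372 and 1125, beside 504 with every library. With library totals in place of TMM factors, calls over all genes moved from 259 higher and 245 lower to 377 higher and 196 lower, and those among the members to 6 higher and 9 lower. Cdsn, Gas7, Igsf10, Ly6a, Ogn, Prelp, Prl2c2, Ptn and Slc1a3 were called in all 16 alternatives run, and no called member changed direction in any of them.

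**Figure D4:**
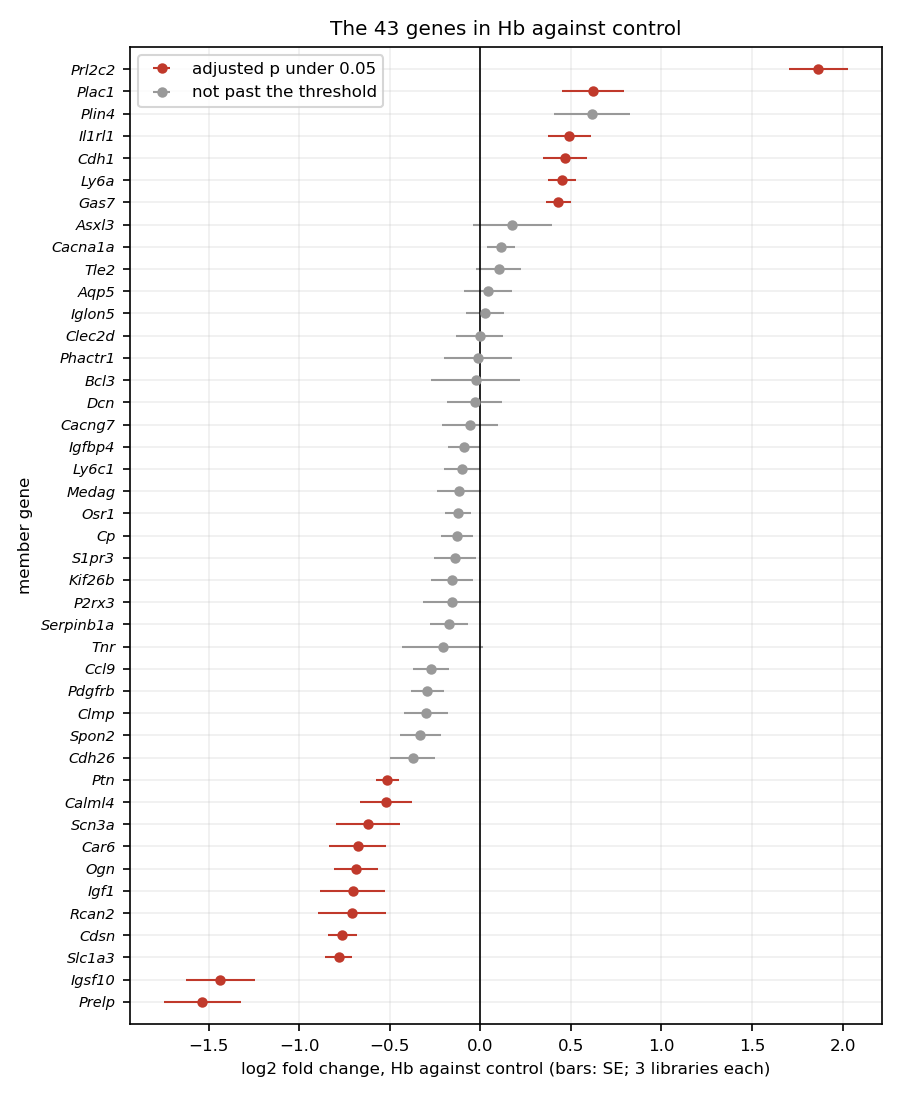
Log2 fold change of Hb against control for each of the 43 genes (x axis, bars are the standard error, 3 libraries per group, y axis ordered by the value), red where edgeR's adjusted p was under 0.05. The range is from -1.53 ± 0.21 for Prelp to 1.87 ± 0.16 for Prl2c2, with 6 genes called higher and 11 called lower.

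Secreted proteins were the most numerous kind, 14 of the 43, and kept 1.03 to 11.5% of their level with NTR1. Hb against control called 2 of them higher and 6 lower. The counts of this and the later roles stand beside 39.5% called of all 43 genes and 3.65% of all tested genes. Ptn, which encodes the heparin-binding growth factor pleiotrophin, had 235, 216 and 232 CPM in control, 153, 167 and 171 in Hb and 19.6, 19.0 and 19.8 in Hb+NTR1. Control and Hb did not overlap for Ptn, and its fall with oxyhemoglobin alone was 0.51 ± 0.06 on the log2 scale (edgeR adjusted p = 1.16e-05). Cp, encoding the copper-carrying ferroxidase ceruloplasmin, had 122, 119 and 118 CPM in control, 108, 93.1 and 136 in Hb and 4.23, 4.80 and 4.83 in Hb+NTR1. Control and Hb overlapped for Cp (log2 fold change -0.13 ± 0.09, edgeR adjusted p = 0.519), and it passed the threshold with a log2 fold change of -0.28 and an adjusted p of 0.0404 when Hb replicate 3 was left out. Ccl9, a chemokine of the CC family, had 104, 104 and 93.5 CPM, 70.8, 88.9 and 96.8 CPM and 5.71, 3.58 and 5.45 CPM in the same order of groups. Its control and Hb values overlapped too, with Hb replicate 1 the lowest of the 6 (log2 fold change -0.27 ± 0.10, edgeR adjusted p = 0.146), and with no filter on low counts it passed the threshold as lower in Hb (adjusted p = 0.0242).

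The growth factor axis of insulin-like growth factor had a ligand and a binding protein in the set. Igf1, the ligand, had 11.6, 10.3 and 8.76 CPM in control, 6.82, 5.63 and 6.996 in Hb and 1.55, 0.644 and 0.699 in Hb+NTR1. Every Hb value of Igf1 lay below every control value, with a log2 fold change of -0.70 ± 0.18 (edgeR adjusted p = 0.0255). That call was lost if control replicate 1 or 2 or Hb replicate 1 was left out, with an adjusted p up to 0.143. Igfbp4, which encodes a protein that binds insulin-like growth factors, had 43.8, 50.3 and 44.8 CPM in control, 40.5, 46.6 and 46.9 in Hb and 3.45, 4.01 and 3.92 in Hb+NTR1. Control and Hb overlapped for Igfbp4, and only the NTR1 libraries were low.

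The small leucine-rich proteoglycans, which bind collagen fibrils in the matrix, had 3 members in the set. Prelp had 17.0, 15.0 and 12.6 CPM in control, 6.40, 3.66 and 5.88 in Hb and 0.423, 0 and 0.629 in Hb+NTR1. Ogn, osteoglycin, had 27.9, 23.9 and 29.0 CPM in control, 15.1, 16.1 and 20.5 in Hb and 1.20, 1.00 and 1.399 in Hb+NTR1. Both were lower in every Hb library than in every control library, Prelp by a log2 fold change of -1.53 ± 0.21 (edgeR adjusted p = 6.07e-05) and Ogn by -0.68 ± 0.12 (edgeR adjusted p = 0.00109). Dcn, decorin, had means of 10.9 ± 1.36 CPM (control), 10.9 ± 1.83 CPM (Hb) and 1.01 ± 0.236 CPM (Hb+NTR1), each with its SD over 3 libraries, with no difference detected between control and Hb (log2 fold change -0.03 ± 0.15).

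Prl2c2 kept the smallest share among the 43 genes against Hb (0.651%) and against the 6 libraries together, but not against control, where its 2.43% came after Cdh26 (1.78%) and Prelp (2.35%). It encodes proliferin, a hormone of the prolactin family, and had 4.61, 4.19 and 5.70 CPM in control, 16.3, 21.2 and 16.6 in Hb and 0.0705, 0.0716 and 0.210 in Hb+NTR1. The Hb libraries were all above control, with a rise in Hb of 1.87 ± 0.16 on the log2 scale (edgeR adjusted p = 7.40e-08). Plac1, a placenta-enriched gene on the X chromosome, was also higher in every Hb library than in control. It had 5.85, 4.77 and 4.79 CPM in control, 7.89, 7.93 and 8.63 in Hb and 0.353, 0.286 and 0.140 in Hb+NTR1. Its rise in Hb was 0.62 ± 0.17 (edgeR adjusted p = 0.0431), and it missed the threshold in DESeq2 (adjusted p = 0.0707) and without any one of the 3 control libraries, Hb replicate 1, Hb replicate 3 or Hb+NTR1 replicate 2, with an adjusted p up to 0.178. Igsf10, a secreted protein with immunoglobulin domains, went the other way, with 11.9, 12.2 and 8.83 CPM in control, 4.05, 3.19 and 5.36 in Hb and 0.987, 0.644 and 0.909 in Hb+NTR1. Its Hb values all lay below its control values, and the log2 fold change of Hb against control was -1.43 ± 0.19 (edgeR adjusted p = 3.15e-05).

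Car6, a secreted carbonic anhydrase, had 11.5, 10.8 and 10.0 CPM in control, 6.75, 5.69 and 8.34 in Hb and 0.917, 1.15 and 0.839 in Hb+NTR1. It was lower in every Hb library than in control (log2 fold change -0.68 ± 0.16, edgeR adjusted p = 0.0140), a call lost if control replicate 1 or 2 or Hb replicate 1 was left out (adjusted p up to 0.0742). Spon2, a matrix protein, kept 4.83% and Tnr, the neural matrix glycoprotein tenascin R, kept 5.93% of the level without NTR1. Neither passed the threshold in Hb against control, with log2 fold changes of -0.33 ± 0.11 and -0.21 ± 0.22.

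Surface and adhesion proteins made up 8 of the 43 genes. Ly6a and Ly6c1 encode small glycolipid-anchored proteins of the Ly6 family and are neighbours on chromosome 15. Ly6a (chr15:74994877-74998031, minus strand, GRCm38) had 102, 87.4 and 102 CPM in control, 123, 139 and 147 in Hb and 3.95, 4.80 and 4.55 in Hb+NTR1. Ly6c1 (chr15:75044018-75048830, minus strand) had 51.3, 45.1 and 47.8 CPM in control, 39.0, 48.7 and 50.4 in Hb and 1.90, 2.86 and 2.098 in Hb+NTR1. Every Hb library of Ly6a lay above every control library, a rise of 0.45 ± 0.08 (edgeR adjusted p = 8.94e-04), whereas control and Hb overlapped for Ly6c1 (log2 fold change -0.10 ± 0.10, edgeR adjusted p = 0.668).

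Both cadherins of the set, calcium-dependent adhesion proteins, were low in every NTR1 library. Cdh26 (chr2:178430531-178487366, plus strand) had 18.5, 16.2 and 21.1 CPM in control, 14.3, 15.6 and 14.3 in Hb and 0.282, 0.430 and 0.280 in Hb+NTR1. That left 1.98%, the second lowest share of the set, on 4 to 6 counts per library. Control and Hb did not overlap for Cdh26, but the difference of -0.37 ± 0.12 missed the threshold (edgeR adjusted p = 0.104). Cdh1, the E-cadherin of epithelial junctions, had 12.8, 15.6 and 15.6 CPM in control, 23.0, 18.6 and 20.9 in Hb and 2.186, 2.01 and 1.82 in Hb+NTR1. Cdh1 rose with oxyhemoglobin by 0.47 ± 0.12 (edgeR adjusted p = 0.0265), and the call was lost without any one of the 3 control libraries, Hb replicate 1 or Hb replicate 3 (adjusted p up to 0.170). Cdsn, corneodesmosin, an adhesive protein known from the outer skin, had 70.4, 76.9 and 76.1 CPM in control, 46.4, 44.5 and 44.5 in Hb and 6.13, 6.37 and 4.90 in Hb+NTR1. Its Hb values all lay below its control values, with a fall of 0.76 ± 0.08 in Hb (edgeR adjusted p = 1.53e-06).

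The remaining surface genes, Clmp, Iglon5 and Clec2d, kept 11.8%, 7.09% and 11.6%. Clmp encodes an adhesion protein of cell junctions, Iglon5 a neuronal adhesion protein of the IgLON family and Clec2d a lectin-like ligand of natural killer cell receptors. Control means were 17.2 ± 0.343, 26.6 ± 1.44 and 15.2 ± 1.56 CPM and Hb means 14.3 ± 0.862, 27.8 ± 2.89 and 15.6 ± 1.63 CPM (SD, n = 3), none of them called different.

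The 3 receptors were Pdgfrb, Il1rl1 and S1pr3, and Hb against control called Il1rl1 alone. Pdgfrb, the beta receptor of platelet-derived growth factor, had 109.7, 95.04 and 99.7 CPM in control, 96.3, 69.0 and 90.6 in Hb and 6.35, 6.52 and 6.15 in Hb+NTR1. Hb replicate 2 was the lowest of the 6 libraries without NTR1, and the log2 fold change of -0.29 ± 0.09 missed the threshold (edgeR adjusted p = 0.0765), but passed it without Hb replicate 1 (adjusted p = 0.0197) and with no filter on low counts (adjusted p = 0.0110). Il1rl1, which encodes ST2, an interleukin receptor chain, had 16.6, 14.8 and 15.7 CPM in control, 23.0, 23.7 and 21.4 in Hb and 0.353, 0.931 and 0.629 in Hb+NTR1. All Hb values of Il1rl1 exceeded all control values, by 0.49 ± 0.12 (edgeR adjusted p = 0.0172), with the call lost if control replicate 2 or 3 or Hb replicate 1 was left out (adjusted p up to 0.102). S1pr3, a receptor of the lipid sphingosine-1-phosphate, had 21.6, 16.5 and 20.3 CPM in control, 17.7, 19.0 and 17.8 in Hb and 0.846, 0.859 and 0.839 in Hb+NTR1. The 3 NTR1 values of S1pr3 were nearly equal, and control and Hb overlapped.

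Channels and transporters numbered 6, most of them known from excitable or glial cells. Slc1a3, the glutamate transporter GLAST of astrocytes, had 223, 193 and 201 CPM in control, 114, 118 and 137 in Hb and 6.84, 7.73 and 6.99 in Hb+NTR1. Every Hb value of Slc1a3 lay below every control value, and the fall from control to Hb was 0.78 ± 0.07 on the log2 scale (edgeR adjusted p = 2.23e-07). Cacna1a, the pore subunit of P/Q-type calcium channels, had 82.0, 88.8 and 87.5 CPM in control, 98.8, 104 and 83.6 in Hb and 10.1, 10.9 and 9.72 in Hb+NTR1. Control and Hb overlapped for Cacna1a (log2 fold change 0.11 ± 0.08, edgeR adjusted p = 0.516), and its remaining level of 11.3% was close to the limit of the rule. Scn3a, a voltage-gated sodium channel, had 9.46, 13.2 and 13.6 CPM in control, 7.32, 6.71 and 10.1 in Hb and 0.917, 0.644 and 0.420 in Hb+NTR1. Its control and Hb values overlapped, and its call in Hb (log2 fold change -0.62 ± 0.18, edgeR adjusted p = 0.0496) was lost in 10 of 16 alternatives, without control replicate 2 or 3, Hb replicate 1 or 2 or Hb+NTR1 replicate 2 or 3 among them, with an adjusted p up to 0.234.

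The other channels were not called between control and Hb. Aqp5, a water channel, had 24.1 ± 4.28 CPM (control), 25.3 ± 1.66 CPM (Hb) and 1.91 ± 0.789 CPM (Hb+NTR1), with SDs over 3 libraries. Cacng7, an auxiliary channel subunit, and P2rx3, an ATP-gated channel of sensory neurons, kept 10.2% and 11.6% of 9.65 and 8.54 CPM.

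Nuclear proteins were 4, with 0 called in Hb against control by edgeR, 0 at an unadjusted p under 0.05 and 0 called by DESeq2. Osr1 (chr12:9570116-9581500, plus strand) had 95.6, 97.6 and 91.9 CPM in control, 94.6, 91.0 and 83.2 in Hb and 6.70, 6.37 and 6.01 in Hb+NTR1. Control and Hb overlapped for Osr1 (log2 fold change -0.12 ± 0.07, edgeR adjusted p = 0.406), and the 3 NTR1 values were low and close to each other. Tle2, a corepressor of the Groucho family, kept 8.57%, Bcl3, a nuclear partner of NF-kB, kept 11.3% and Asxl3, a chromatin protein of the Asx family, kept 12.3%. Bcl3 and Asxl3 had means without NTR1 of 5.19 and 7.08 CPM, and the Hb libraries of both overlapped control.

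Intracellular proteins were 8, led by Gas7, an F-BAR protein that binds membranes and actin. Gas7 (chr11:67455437-67688990, plus strand) had 114, 118 and 116 CPM in control, 166, 145 and 171 in Hb and 8.53, 8.16 and 8.95 in Hb+NTR1. Like Ly6a it was higher in every Hb library than in control, by 0.43 ± 0.07 (edgeR adjusted p = 2.96e-04), and kept 6.18% with NTR1. Medag, a cytoplasmic protein linked to fat cell formation, had 29.5, 28.6 and 27.3 CPM in control, 21.9, 32.6 and 26.3 in Hb and 0.917, 1.58 and 1.26 in Hb+NTR1. Hb replicates 1 and 2 of Medag bracketed all other libraries without NTR1, and no difference was detected (edgeR adjusted p = 0.697).

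The calcium-handling genes Calml4 and Rcan2 were both lower in Hb. Calml4, a calmodulin-like protein, had 17.2, 12.4 and 13.97 CPM in control, 9.74, 10.0 and 11.5 in Hb and 0.705, 0.430 and 0.420 in Hb+NTR1. Rcan2, an inhibitor of the phosphatase calcineurin, had 7.09, 7.80 and 8.06 CPM in control, 4.76, 5.42 and 4.17 in Hb and 0.0705, 0.358 and 0.210 in Hb+NTR1. Neither overlapped between control and Hb, and the log2 fold changes were -0.52 ± 0.14 (edgeR adjusted p = 0.0395) and -0.71 ± 0.19 (edgeR adjusted p = 0.0318). Calml4 lost its call in DESeq2 (adjusted p = 0.0573), in the fit of the 6 libraries, with library totals and without control replicate 1 or 3, Hb replicate 1 or Hb+NTR1 replicate 2 or 3 (adjusted p up to 0.255). Rcan2 lost it without any one control library, Hb replicate 1 or Hb replicate 3 (adjusted p up to 0.142).

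The other intracellular genes were Kif26b, a kinesin-like protein, Phactr1, a regulator of protein phosphatase and actin, Plin4, a coat protein of lipid droplets, and Serpinb1a, an inhibitor of neutrophil proteases. They kept 7.10%, 7.68%, 8.51% and 4.91%. Plin4 had 5.08, 3.93 and 3.89 CPM in control and 5.97, 6.17 and 8.34 in Hb, with no overlap but a difference of 0.62 ± 0.21 on the log2 scale that missed the threshold (edgeR adjusted p = 0.116). The other 3 were not called in Hb either, with log2 fold changes of -0.15 ± 0.12 for Kif26b, -0.01 ± 0.19 for Phactr1 and -0.17 ± 0.11 for Serpinb1a.

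The families and pathways of the members were then read as whole lists in Hb+NTR1 against Hb, where edgeR called 62.3% of all tested genes, 30.7% higher and 31.6% lower, with a median log2 fold change of -0.01. The counts include genes of the set, which are low there by choice, and the genes given with values were from the largest changes among those with 5 CPM or more in the higher group. Of the Ly6 and uPAR family, 6 were tested, of which 4 were lower, Ly6a, Ly6c1, Ly6e and Slurp1, and 2 higher, Plaur and Lynx1. Ly6e, the tested gene nearest to Ly6a at 35.0 kb, kept more of its level. It went from 324 ± 29.5 to 109 ± 4.30 CPM (a log2 change of -1.59 ± 0.07, edgeR adjusted p = 2.30e-15). Plaur, the urokinase receptor, went the other way, from 23.6 ± 3.58 to 56.9 ± 6.08 CPM (a log2 change of 1.24 ± 0.11, edgeR adjusted p = 6.60e-10). Of 7 cadherins tested, Cdh26, Cdh1, Cdh3 and Cdh24 were lower and Cdh2, the N-cadherin, and Cdh23 higher. Cdh2 rose from 154 ± 5.83 to 199 ± 1.90 CPM (edgeR adjusted p = 4.78e-05), while the 11 catenins and other cadherin partners tested split into 3 higher, Pkp4, Afdn and Ctnnb1, 3 lower and 5 not called.

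Of 15 F-BAR proteins tested, 8 were lower and 3 higher, and next after Gas7 came Fes (-0.96 ± 0.12), Srgap1 (-0.89 ± 0.15) and Trip10 (-0.87 ± 0.08), log2 fold changes of less than 1. Of 52 mesenchymal transcription factors tested, 36 were lower and 6 higher, with a median of -0.58. Beside Osr1, large changes were seen in Prrx1, a homeodomain factor of limb and connective tissue, from 197 ± 19.4 to 42.2 ± 2.72 CPM (log2 fold change -2.25 ± 0.07), and, upward, in Hes1, a Notch target, from 1.36 ± 0.297 to 6.51 ± 1.37 CPM (2.24 ± 0.26). Of 20 fibroblast and mesenchymal progenitor markers tested, 18 were lower and 1, Cd44, higher, with a median of -2.14. That list holds Ly6a, Pdgfrb and Dcn, which were chosen on these libraries. It also holds Col1a1, Col1a2 and Col3a1, which passed the same floor and ratio and were left out by symbol alone. Col3a1 went from 1772 ± 52.1 to 72.3 ± 3.91 CPM. The summed level of all 25 markers was 16611 to 18827 CPM in Hb and 3842 to 3960 CPM with NTR1. In control 92.7% of that sum came from Col1a2, Col1a1, Vim, Fn1 and Col3a1. The collagens among them passed the floor and ratio, whereas Vim and Fn1 did not, so the fall of the sum is only partly independent of the rule. The part of these markers in the fall of the members was not tested. In Hb against control, where 3.65% of all tested genes were called, the same lists had 2 higher of 6 in the Ly6 family (33.3%, Ly6a and Ly6e), Cdh1 higher of 7 cadherins (14.3%) and Gas7 higher of 15 F-BAR proteins (6.67%). The mesenchymal factors had 2 higher and 4 lower of 52 (11.5%), and the fibroblast markers 1 higher (Ly6a) and 5 lower of 20 (30%). Of the 11 cadherin partners edgeR called 0 in Hb against control, with 3 at an unadjusted p under 0.05 and 0 called by DESeq2.

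**Figure D5:**
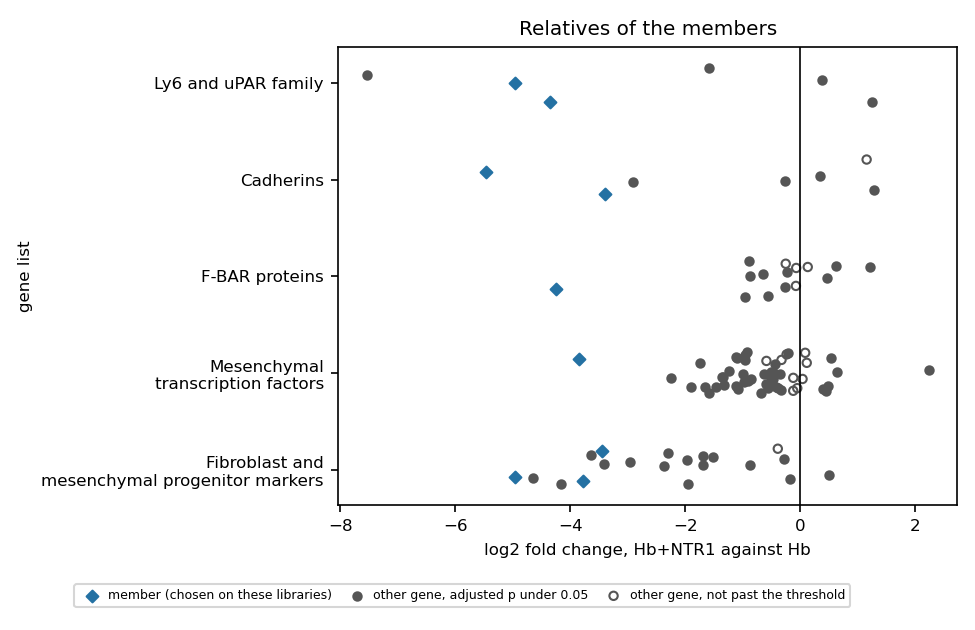
Log2 fold change of Hb+NTR1 against Hb (x axis) for each tested gene of 5 lists (y axis); diamonds are genes of the set, which the rule chose on these libraries, filled circles other genes past edgeR's adjusted p of 0.05 and open circles those that were not. The genes of the set lie among the lowest of each list, and the far left point is Slurp1, at 0 counts with NTR1, whose fitted value depends on the fit.

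Lists of chromatin regulators and interferon genes were called in either direction at shares of 61.5 to 75%, beside 62.3% over all tested genes. Of all tested genes 30.7% were higher and 31.6% lower. Of Polycomb genes, PRC2 had 5 higher and 3 lower of 12 in Hb+NTR1 against Hb, the largest being Phf19 (-0.81 ± 0.13), Lcor (0.68 ± 0.13), Aebp2 (-0.56 ± 0.07) and Suz12 (0.55 ± 0.06). PRC1 had 8 higher and 7 lower of 20, among them Phc1 (-1.29 ± 0.11) and Cbx7 (-0.60 ± 0.15). Of DNA methylation enzymes and readers 4 were higher and 7 lower of 17, with Mbd3 (-0.87 ± 0.08), a methyl-CpG-binding family protein, and the glycosylase gene Mbd4 (0.59 ± 0.11) in opposite directions. Histone deacetylases and H3K9 methyltransferases, with their partners, had 5 higher and 11 lower of 26, among them Hdac7 (-1.04 ± 0.07), Sirt6 (-0.78 ± 0.10) and Sirt2 (0.71 ± 0.07). Interferon response genes were mostly higher, with 15 higher and 2 lower of 27 and a median log2 fold change of 0.46, beside -0.01 over all tested genes. Among them were Gbp3 (2.51 ± 0.16), Gbp2 (1.36 ± 0.12), Ddx58 (1.25 ± 0.08) and Ifngr2 (1.23 ± 0.08). In Hb against control edgeR called 0 of the PRC2, PRC1 and DNA methylation genes, with 0 at an unadjusted p under 0.05 and 0 called by DESeq2, and it called 1 deacetylase (Sirt7) and 1 interferon gene (Xaf1) higher.

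Markers of other cell types were read beside the set, and their part in it was not tested. In Hb+NTR1 against Hb, edgeR called 30.7% of all tested genes higher and 31.6% lower. Neuronal markers had 1 higher and 5 lower of 8 tested there, with Tubb3 from 36.8 ± 4.32 to 5.35 ± 0.451 CPM. The neuronal list summed to 233 to 249.9 CPM in Hb and 161 to 165 CPM with NTR1. All 5 tested astrocyte and oligodendrocyte markers were lower, Slc1a3 most, Gfap was at 0.238 CPM in Hb and Aqp4 was at 0 throughout. Slc1a3 is a gene of the set and was low there by choice. The other 15 markers of that list summed to 244 to 308 CPM in Hb and 172 to 197 CPM with NTR1. The 11 macrophage markers summed to 13.1 to 14.6 CPM in Hb and 69.2 to 74.2 CPM with NTR1, where Cd68 and Lyz2 were the 2 higher of 3 tested and Ptprc, the leukocyte common antigen, was at 0.164 CPM. Endothelial markers summed to 1.56 to 2.53 and 4.80 to 5.15 CPM, with Pecam1 the single tested and higher gene. Epithelial markers summed to 21.1 to 24.9 and 4.48 to 4.94 CPM, Cdh1 being lower and Grhl2 higher (from 0 to 1.98 CPM) of 2 tested. Without Cdh1, which the rule chose as low, the other 12 epithelial markers summed to 1.49 to 2.51 CPM in Hb and 2.65 to 2.75 CPM with NTR1. Of 3 smooth muscle and pericyte markers 1, Acta2, was lower, and the single tested skeletal muscle marker and the single tested sex-linked gene were not called.

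On the genome the 43 genes were spread over 17 chromosomes, and Ly6a and Ly6c1 were the one pair with no tested gene between them, 46.0 kb apart. The next closest pair, Ogn and S1pr3 on chromosome 13, lay 1784 kb apart with 5 tested genes between. The nearest tested genes on each side that were not themselves in the set numbered 84. Of these, 38 (45.2%, beside 31.6% of all tested genes) were lower in Hb+NTR1 against Hb, 18 (21.4%, beside 30.7%) higher and 28 not called, with a median log2 fold change of -0.25 against -0.01 over all tested genes. Among the 38 was Gm37310, next to Slc1a3, which passed the same floor and ratio and was left out by symbol alone. Some of these nearest tested genes were relatives that fell too, such as Prl2c3, 196 kb from Prl2c2 (-4.40), Omd, 15.2 kb from Ogn (-3.76), and Serpinb6b, 114 kb from Serpinb1a (-2.66). Others did not follow, since Sco1, 388 kb from Gas7 (-0.05), and Fam217b, 6.10 kb from Cdh26 (-0.10), were not called. Btg2, 154 kb from Prelp, rose by 2.58, from 15.3 to 93.3 CPM. Members and tested genes had like median exon lengths, 3956 and 4026 bases, but the median span of the gene was 27.7 kb in members and 19.2 kb in tested genes.

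Some members share sequence with other genes, and how the authors counted such reads was not given in the sources used here. Prl2c2 has near-identical relatives, of which Prl2c3 went from 4.54 CPM in Hb to 0.210 with NTR1, so both values are uncertain. Ly6a and Ly6c1, Serpinb1a and Ccl9 also have close relatives, with Ly6c2 at 0.0689 CPM, Serpinb1b at 1.11 CPM and Ccl6 at 0.499 CPM in Hb. Exons of Cp, P2rx3 and Plin4 overlap those of the abundant opposite-strand genes Hps3, Ssrp1 and Hdgfl2, and without a stated strand setting reads cannot be assigned there with certainty. These 3 partners kept their counts with NTR1 far better than the members, Hps3 with 750 to 979 counts per library in control and 850 to 1045 with NTR1, and Ssrp1 with 6145 to 6960 and 4048 to 4570.

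All 43 genes are also in the authors' deposited table of Hb+NTR1 against control, with the same positions as in GENCODE M21. There the authors' log2 fold changes run from -5.88 for Cdh26 to -2.94 for Cdh1.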

How the data were processed

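Poly(A) RNA of 9 libraries, 3 per group, was sequenced on an Illumina NovaSeq, per the labels' protocols. The deposited values are raw read counts per gene, made by the authors with bcl2fastq 2.19.1.403, HISAT2 2.1.0 and HTSeq 0.10.0 on GRCm38, per the submitters' processing notes. Strand setting and annotation release, not given in the sources used here, could change values of overlapping genes. Columns named N were taken as Hb+NTR1 because the authors' deposited Hb+NTR1 table lists N beside C columns alone. That table gives the authors' log2 fold changes, and its deposited p-values were not used. Every column of the count table belonged to a sample.

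From the counts, 98 entries that were exact repeats of another were removed. CPM used the total of each library, and TPM used exon lengths of GENCODE M21. edgeR 4.0.16 (R 4.3.3) fitted 13810 genes past filterByExpr (minimum count 10) over all 9 libraries with TMM factors and group as the only term, by glmQLFit and glmQLFTest with robust settings. P-values were adjusted by Benjamini-Hochberg over all tested genes, with a threshold of 0.05, and log2 fold changes carry a standard error from the F statistic. The common biological coefficient of variation was 6.90%. Depth limits precision as given in the report. The fit was tested on simulated data.

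The members and lists were chosen with earlier results of these data known. Named genes were the markers Ly6a, Osr1, Gas7 and Cdh26, the members with the highest CPM or the lowest ratio, those called in Hb against control, those nearest the limits, those in a list or beside another member, and the 4 largest called changes of each list with 5 CPM. Neighbours, overlapping genes and genes that complete a short count were named after their values were seen, and 1 gene of a list is not reported here. Alternatives were DESeq2 1.42.0 and its size factors, other filters, the 6 libraries alone, a replicate block, each library left out, other limits of the rule and, chosen after seeing the data, library totals without TMM.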

Additional observations from a re-analysis of the deposited data

How the results depend on the processing

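In Hb against control, leaving out 1 library at a time gave 285 to 1125 called genes in all (504 with every library), the highest without Hb replicate 2, and 10 to 17 called among the 43 genes. The other settings called 371 to 645 genes in all and 14 to 19 of the 43. Of 688 log2 fold changes refitted for single members, 615 kept their direction and their side of the threshold, 44 lost the call, 5 gained it and 24 changed sign, all of the last in 10 genes not called under any setting. With library totals, Dcn was 0.0070, Bcl3 0.014, Clec2d 0.035 and Phactr1 0.026. Without 1 library, Dcn ranged from -0.18 to 0.069, Aqp5 from -0.074 to 0.19, Iglon5 from -0.044 to 0.10, Bcl3 from -0.32 to 0.17, Clec2d from -0.083 to 0.084, Asxl3 from -0.026 to 0.38, Phactr1 from -0.10 to 0.092, Medag from -0.29 to 0.017, Ly6c1 from -0.17 to 0.0081 and Tnr from -0.40 to 0.037. The rule itself gave 140 genes at a ratio of 1/4, 19 at 1/16, 67 with a floor of 1 CPM and 26 with a floor of 10 CPM, as wider or narrower limits must, and 33 to 46 under its other settings. The main fit did not treat the replicate numbers as pairs. Deviations of libraries with the same number correlated at 0.235, 0.00824 and -0.039 between control and Hb. Between Hb+NTR1 and Hb they correlated at 0.0212, 0.226 and 0.0773. Without values for unlike numbers beside them, these do not settle whether the numbers mark pairs. The edgeR fit with a replicate block called 645 genes and 18 of the 43, Pdgfrb (adjusted p = 0.0147) among them. The cause of these shifts was not tested. Depth limits the remaining level of the 12 genes with under 30 counts over the NTR1 libraries.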
